A study of Mus musculus with 14 samples.

Results

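Sterol and fatty acid synthesis genes were examined in messenger RNA of regulatory T cells from mouse spleen. The set holds 33 genes, listed by symbol as enzymes and targets of the SREBP and LXR pathways, of 30284 genes in the data. All 33 had enough reads to be tested. The regulatory T cell, a class of CD4 T cell marked by the transcription factor Foxp3, restrains immune responses. The cells had been sorted from C57/B6 mice as cells carrying Foxp3 and YFP. The knockout-labelled group was Tln1fl/flFoxp3cre/wt and the control group was Tln1wt/wtFoxp3cre/wt, so mice of both groups carried 1 allele of Cre driven by Foxp3, and the Tln1 alleles were floxed in the knockout-labelled group only. Tln1 encodes talin-1, which binds integrin tails and switches integrins to their active form. A library came from 1 to 2 animals, and the ages of the mice are not stated in the labels. The 14 samples made up 3 knockout-labelled units and 4 control units of 2 samples each, with between 38811489 and 56109143 reads in the knockout-labelled units and between 12851425 and 39214264 in the control units.

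Cells build cholesterol from acetyl-CoA through mevalonate, isoprenoid units, squalene and lanosterol. When sterols in the endoplasmic reticulum are scarce, Scap carries the precursor of SREBP-2 to the Golgi, where it is cut to an active factor that raises most genes of this route; Insig proteins hold Scap back when sterols are plentiful. SREBP-1 acts more on fatty acid genes, and the oxysterol receptor LXR, encoded by Nr1h2 and Nr1h3, raises genes of sterol export, Srebf1 and Scd1. In T cells this synthesis is known to rise with activation and growth.

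The targeted gene, taken whole, did not check the labels. In CPM (reads scaled to a common library size), Tln1 read 788, 901 and 1014 in knockout-labelled units 1 to 3, against 634, 543, 847 and 648 CPM in controls 1 to 4. The groups overlapped, and the log2 fold change of the whole gene was 0.43 ± 0.18 (SE; edgeR quasi-likelihood test, Benjamini-Hochberg adjusted p = 0.126). A short non-coding transcript of 2 exons within the gene, Tln1-204 (chr4:43555564-43555946, GRCm38), had 6.60, 4.92 and 1.81 TPM (transcripts scaled for length and depth) in knockout-labelled units against 185, 9.86, 190 and 163 TPM in control units. The groups did not overlap, with control unit 2 far below the other controls, and the log2 difference on TPM + 1 was -4.15 ± 1.00 (SE; limma adjusted p = 0.0744). The labels do not state which exons are floxed, so the groups are named by their labels. Foxp3, the marker of regulatory T cells, was read in both groups, at 370, 515 and 401 CPM in knockout-labelled units and 468, 324, 478 and 406 CPM in control units. Markers of other cells were higher in the knockout-labelled units. The sum of 10 B cell markers lay between 180 and 395 CPM there, against 37.0 to 95.2 CPM in control units (7 of 10 called higher). The sum of 12 myeloid markers lay between 403 and 1929 CPM, against 20.3 to 120 CPM (8 of 12 higher), and that of 8 dendritic cell markers between 44.0 and 72.0 CPM, against 4.35 to 16.4 CPM (4 of 8 higher). The sum of 8 cytotoxic lymphocyte markers was 57.3 to 100 CPM, against 29.9 to 40.2 CPM (4 of 8 higher), and that of 9 erythroid and platelet genes 54.8 to 1821 CPM, against 6.79 to 30.4 CPM (1 of 7 tested higher). Cell cycle genes summed to 610 to 2404 CPM, against 392 to 737 CPM (0 of 12 called by edgeR, with 4 of 12 at an unadjusted p under 0.05). The 7 T cell genes, Foxp3 among them, summed to 2339 to 3266 CPM in the knockout-labelled units, against 3709 to 4583 CPM in control units. Of these 7, 6 had a log2 fold change below 0 and 1 above 0, with a median of -0.50, and 2, Il2ra and Ikzf2, were called lower. No marker of these lists was at 0 in every unit of either group.

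Among the 33 members, 6 fell in the knockout-labelled units, 2 rose, and 25 did not pass the test. The genes that fell were the early enzymes Hmgcs1 and Idi1, the late sterol enzymes Cyp51, Msmo1 and Sc5d, and the sterol carrier Stard4. The genes that rose were the desaturase gene Scd1 and the receptor gene Nr1h2. The call was an edgeR quasi-likelihood test with Benjamini-Hochberg adjustment over all 15744 genes tested at a false discovery rate (FDR) of 0.05. It took 24.2% of the members and 13.6% of all genes tested. Of all genes, 6.53% were called lower and 7.08% higher. The median log2 fold change, knockout-labelled over control, was 0.02 over the members and 0.06 over all genes, so the set as a whole sat at the middle of the data. The 3 knockout-labelled units and the 4 control units did not overlap for 7 of 33 members, a smaller share than the 30.8% of all genes tested. The sums of T cell genes and of the markers of other cell types given above did not overlap between the same groups, and their part in these calls was not tested. In bulk RNA, fewer cells of a type and less RNA per cell cannot be told apart.

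**Figure D1:**
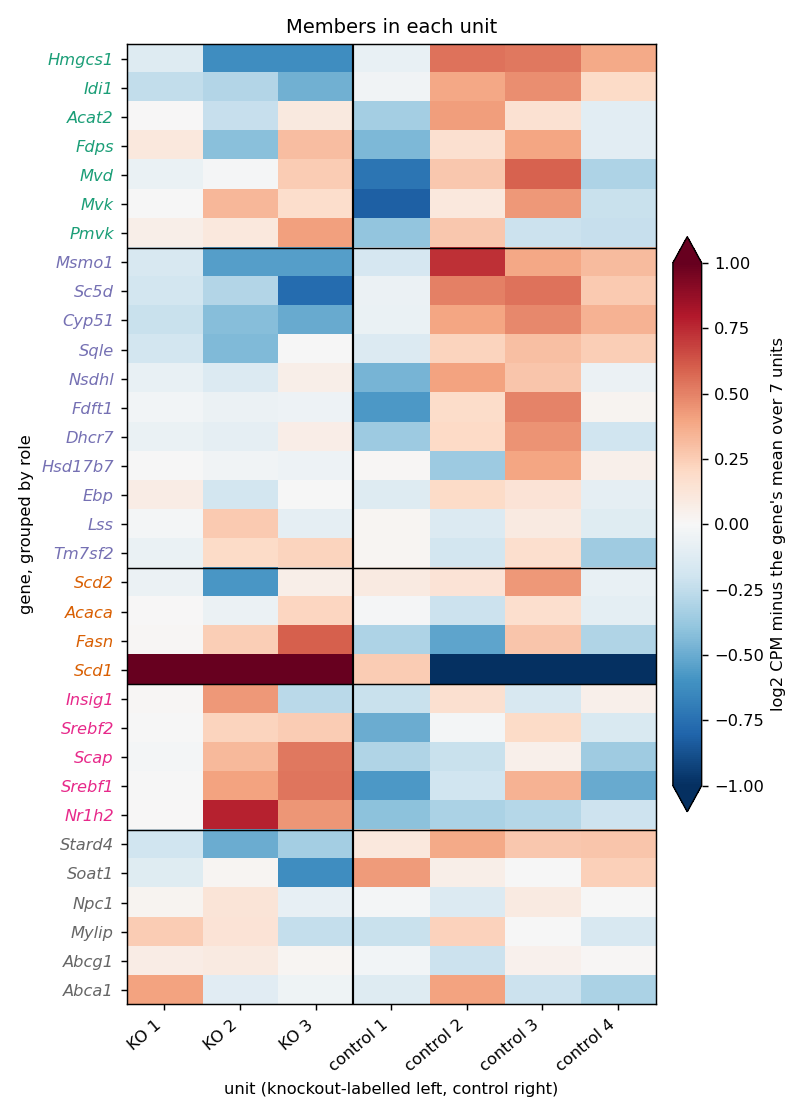
Each cell is the log2 CPM of 1 gene in 1 unit minus that gene's mean over the 7 units; rows are the 33 members grouped by role and ordered by fold change within a role, and columns are the 3 knockout-labelled units (KO, left) and the 4 control units (right). Hmgcs1, Idi1, Msmo1, Sc5d, Cyp51 and Stard4 are low in the knockout-labelled units, control unit 1 is the palest or bluest control in most sterol genes, and Scd1 exceeds the colour scale in 6 of 7 units.

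The count of called members depended on which units were used. In each of these fits the share of all genes called was also below the 13.6% found with all units. Of the 33 members, 8 were called with control unit 1 left out (11.6% of all genes), 7 without control unit 3 (3 lower and 4 higher; 12.2%) and 7 without knockout-labelled unit 1 (12.1%). The count was 2 without knockout-labelled unit 3 (6.18% of all genes), 1 without control unit 2 (7.18%), and 0 without knockout-labelled unit 2 (7.18%) or control unit 4 (4.87%). Without both control unit 1 and knockout-labelled unit 3, which stood apart in marker sums, it was 7, with 6 lower and 1 higher (8.35% of all genes).

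Hmgcs1 encodes the cytosolic HMG-CoA synthase, an early enzyme of the mevalonate route. It read 65.3, 46.4 and 46.5 CPM in knockout-labelled units 1 to 3, against 67.7, 104, 103 and 92.8 CPM in control units 1 to 4. All knockout-labelled units were below all control units, and knockout-labelled unit 1 lay just under control unit 1. Its means were 52.7 ± 10.9 CPM in the knockout-labelled units (SD, n = 3) and 91.9 ± 16.9 CPM in the control units (SD, n = 4), a log2 fold change of -0.80 ± 0.19 (SE; edgeR adjusted p = 0.0230). The call held in 3 of 7 fits that each left out 1 unit; it was lost without control unit 2 or 4 and without knockout-labelled unit 2 or 3, where the adjusted p was between 0.0578 and 0.0727.

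Idi1 encodes the isomerase that interconverts the 2 isoprenoid building blocks. It read 40.7, 39.4 and 34.6 CPM in knockout-labelled units, against 47.1, 63.1, 66.6 and 55.2 CPM in control units. The groups did not overlap, and control unit 1 was again the lowest control. On the log2 scale the change was -0.60 ± 0.15 (edgeR adjusted p = 0.0286). The call held only without control unit 1, and the other 6 fits that left out 1 unit gave an adjusted p between 0.0503 and 0.0895. Of the 31-base words of Idi1, 18.8% also occur in other genes, the most in Gm13502, so some of its reads could be placed elsewhere.

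The other 5 genes from acetyl-CoA to farnesyl diphosphate did not pass the test. Acat2, which joins acetyl-CoA units, had a log2 fold change of -0.10, and Fdps, the farnesyl diphosphate synthase, of 0.00. The mevalonate kinase Mvk had 0.22, the phosphomevalonate kinase Pmvk 0.32 and the decarboxylase Mvd 0.02. In all 5 the groups overlapped, and control unit 1 was the lowest of all 7 units in each. Values of Fdps and Acat2 are uncertain because 72.6% of the 31-base words of Fdps and 44.2% of those of Acat2 occur in other genes. The gene sharing the most words was Gm3571 for Fdps and Acat3 for Acat2. Mvd overlaps Gm20388 on the opposite strand, and the kit gave unstranded libraries.

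Cyp51 encodes the demethylase that removes a methyl group from lanosterol. It read 40.4, 35.0 and 33.1 CPM in knockout-labelled units, against 45.0, 62.0, 65.5 and 60.0 CPM in control units. The groups did not overlap. Relative to control, the log2 change was -0.69 ± 0.16 (edgeR adjusted p = 0.0215), and the call was lost without control unit 2 or 4 and without knockout-labelled unit 2 or 3, where the adjusted p was between 0.0512 and 0.0661. It overlaps Akap9 by 166 bases on the opposite strand.

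Msmo1, the methylsterol monooxygenase of the next steps, read 28.9, 22.0 and 22.0 CPM in knockout-labelled units, against 28.8, 53.7, 42.2 and 40.1 CPM in control units. Control unit 1 was as low as knockout-labelled unit 1, so the groups touched, while the other controls were well above. Its log2 fold change was -0.76 ± 0.21 (edgeR adjusted p = 0.0392). The call held in 2 of 7 fits that left out 1 unit, and in the other 5, without control unit 2, 3 or 4 or knockout-labelled unit 2 or 3, the adjusted p was between 0.0676 and 0.117.

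Sc5d, the sterol desaturase that acts just before Dhcr7, read 39.5, 36.6 and 26.4 CPM in knockout-labelled units, against 43.0, 63.6, 65.5 and 54.0 CPM in control units. The groups did not overlap, with knockout-labelled unit 3 lowest and control unit 1 the lowest control. This gave a log2 fold change of -0.73 ± 0.19 (adjusted p = 0.0329 by edgeR). The call held without control unit 1 and without knockout-labelled unit 1, and the adjusted p was between 0.0647 and 0.0990 in the other 5 fits.

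**Figure D2:**
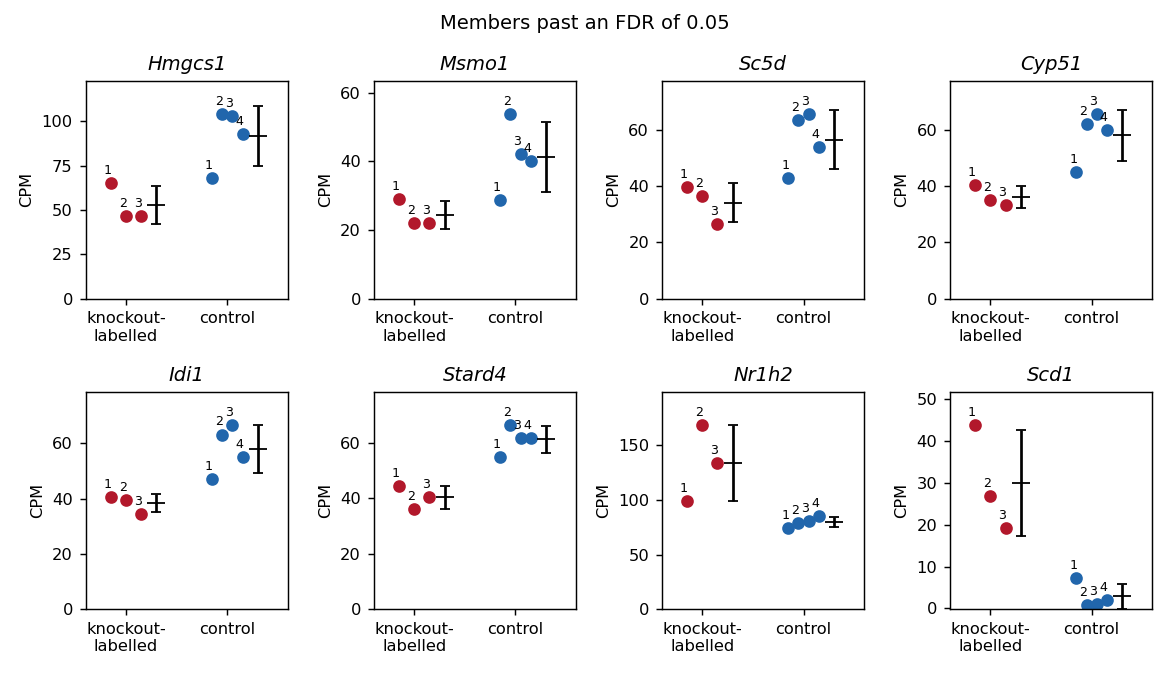
Points are CPM of single units, numbered as in the labels, with the mean and SD beside each group (n = 3 knockout-labelled units at the left of each panel, n = 4 control units at the right). For Hmgcs1, Sc5d, Cyp51, Idi1 and Stard4 every knockout-labelled point lies below every control point, for Nr1h2 and Scd1 every one lies above, and for Msmo1 knockout-labelled unit 1 and control unit 1 are level at 28.9 and 28.8 CPM.

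The 8 other genes from squalene to cholesterol did not pass the test, and their groups overlapped. Sqle, the squalene epoxidase, came closest. It read 34.4, 28.8 and 39.1 CPM in knockout-labelled units against 35.6, 45.6, 48.1 and 46.5 CPM in control units. Its log2 fold change was -0.37 ± 0.16 (adjusted p = 0.138 by edgeR). The squalene synthase gene Fdft1 had a log2 fold change of -0.13 and the lanosterol synthase gene Lss 0.09. The value of Lss mixes several forms: 8.25% of its control TPM lay in the protein-coding Lss-201, of 4667 bases, and 34.6% in the non-coding Lss-202, of 352 bases. Tm7sf2, a sterol reductase, had 0.19. Nsdhl and Hsd17b7, which act with Msmo1 in demethylation, had -0.13 and -0.08, the isomerase Ebp -0.07 and the last reductase Dhcr7 -0.09. Fdft1 shares 47.5% of its 31-base words with other genes, the most with the overlapping gene Ctsb. Tm7sf2 shares 13.8% of its words with other genes, the most with Vps51, so its reads are also uncertain. Taking the 18 mevalonate and sterol genes as 1 route, 5 fell and none was called higher, where 6.53% of all genes were called lower and 7.08% higher. A log2 fold change below 0 was found in 13 of the 18, against 7218 of 15744 genes tested, and the median was -0.09, against 0.06 over all genes. The summed level of the route, in TPM (a unit that corrects for length), was 270, 289 and 268 TPM in knockout-labelled units against 247, 326, 429 and 278 TPM in control units. These sums overlapped between the groups, with control unit 1 lowest and control unit 3 highest of all.

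Promoter letters of 3 of the falling enzymes are shown because SREBP-2 acts at promoters of this route together with the factors NF-Y and Sp1. The RefSeq promoter table (GRCm38.p6) held a window of 300 bases, 250 before and 50 after the start site, for 25 of the 33 members. Bases before the start that no annotated exon of the gene covers are printed 5′ to 3′ along the gene's strand. Capitals mark matches, on either strand, to the sterol response letters TCACNCCAC, the NF-Y letters CCAAT and the Sp1 letters GGGCGG. Read on the other strand, CCAAT appears as ATTGG, and the Sp1 letters as CCGCCC. The stretches are chr13:119690101-119690350 (plus strand) for Hmgcs1, chr5:4104747-4104947 (minus strand) for Cyp51 and chr9:42264301-42264550 (minus strand) for Sc5d.
Hmgcs1: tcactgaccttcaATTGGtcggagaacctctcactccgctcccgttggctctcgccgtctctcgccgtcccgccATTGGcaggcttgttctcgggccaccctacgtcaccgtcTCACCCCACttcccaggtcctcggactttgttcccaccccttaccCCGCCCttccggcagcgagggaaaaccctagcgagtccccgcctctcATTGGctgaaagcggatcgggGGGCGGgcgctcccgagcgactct
Cyp51: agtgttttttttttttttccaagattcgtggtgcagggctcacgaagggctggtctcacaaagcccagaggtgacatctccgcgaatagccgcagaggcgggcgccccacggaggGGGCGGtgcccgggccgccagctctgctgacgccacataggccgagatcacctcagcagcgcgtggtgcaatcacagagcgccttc
Sc5d: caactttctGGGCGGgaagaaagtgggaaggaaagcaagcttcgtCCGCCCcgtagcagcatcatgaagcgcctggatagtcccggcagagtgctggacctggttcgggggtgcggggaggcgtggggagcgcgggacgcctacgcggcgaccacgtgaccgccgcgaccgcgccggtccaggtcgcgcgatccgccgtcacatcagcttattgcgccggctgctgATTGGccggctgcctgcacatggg

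In Hmgcs1 the sterol response letters stand 137 bases before the start site, between NF-Y letters 176 and 45 bases before it and next to Sp1 letters 92 bases before it. Hmgcs1 was the only 1 of the 25 members with a match to the sterol response letters. By gene, 1.44% of the 27025 genes in the table had a match. By window it was 1 of the 31 member windows (3.23%) and 1.24% of all 32851 windows. Counted by window, as some genes have several, the NF-Y letters were in 21 of the 31 member windows (67.7%) and 37.4% of all windows, and the Sp1 letters in 24 of the 31 (77.4%) and 35.7% of all windows. No matches of different motifs overlapped in the printed stretches. Members that fell and members that did not both held NF-Y and Sp1 letters, and a match is a description of the letters, not of a factor at the site. The window of Cyp51 also holds NF-Y letters, 29 bases before the start, in the 49 bases left out of the printed stretch because an annotated exon covers them. The windows of Idi1 and Msmo1 lie in annotated exons over 105 and 214 bases before the start and are not printed; both hold NF-Y and Sp1 letters, in Idi1 at 45 and 69 bases and in Msmo1 at 55 and 62 bases before the start.

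Of the fatty acid genes, Scd1 alone passed the test. It encodes the stearoyl-CoA desaturase that makes oleate, lies at chr19:44394455-44407879 (GRCm38, minus strand), and is a known target of both SREBP-1 and LXR. Scd1 read 43.9, 26.9 and 19.1 CPM in knockout-labelled units, against 7.32, 0.879, 1.07 and 2.06 CPM in control units. The knockout-labelled units were all above the controls, of which unit 1 was highest. The log2 fold change was 3.45 ± 0.83, or 10.9-fold (edgeR adjusted p = 0.0454), on as few as 18 reads in a control unit. The call held only without control unit 1, and the adjusted p was between 0.0712 and 0.129 in the other 6 fits that left out 1 unit. Scd1 also shares 8.2% of its 31-base words with other genes, the most with Scd3.

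The order of the units by Scd1 matched that of some marker sums of other cells and not of others. The dendritic cell marker sum was 72.0, 51.0 and 44.0 CPM in the knockout-labelled units, in the order of their numbers, and 16.4, 4.35, 5.64 and 10.7 CPM in control units 1 to 4, the same order over the 7 units as Scd1. The B cell sum was 395, 325 and 180 CPM in knockout-labelled units and 95.2, 46.4, 37.0 and 50.5 CPM in control units, an order that differed from that of Scd1 only between control units 2 and 3. The myeloid sum had another order, with 789, 403 and 1929 CPM in knockout-labelled units and 120, 20.3, 22.2 and 32.5 CPM in control units. The cytotoxic sum was 100, 74.2 and 57.3 CPM in knockout-labelled units and 34.1, 40.2, 33.4 and 29.9 CPM in control units. Its order differed from that of Scd1 among the controls. The erythroid and platelet sum, at 161, 54.8 and 1821 CPM against 30.4, 28.2, 6.79 and 10.2 CPM, also had another order. Each of these sums was higher in every knockout-labelled unit than in every control unit, which sets part of the order. The part of other cells in the Scd1 result was not tested.

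**Figure D3:**
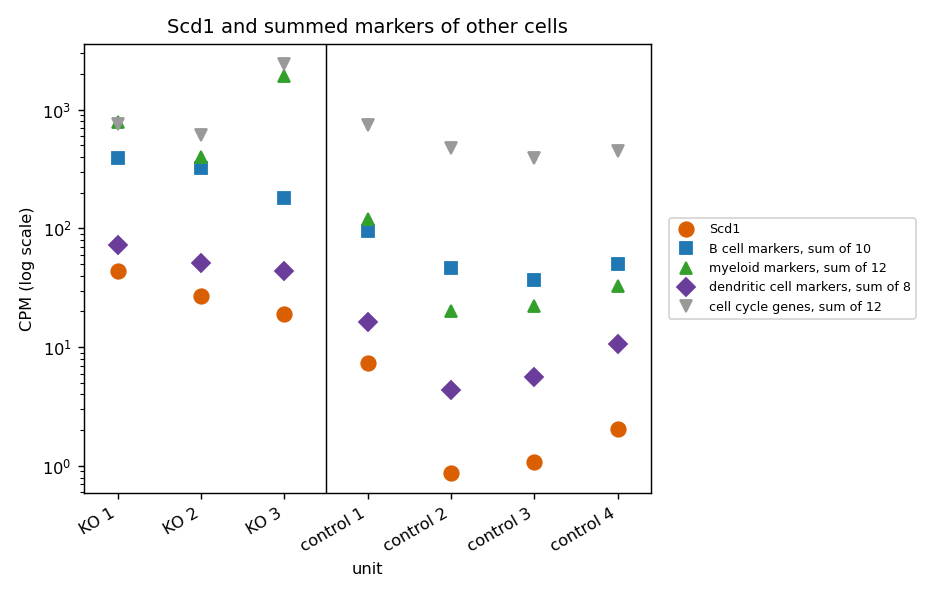
CPM of Scd1 (circles) and summed CPM of 4 marker lists in each unit, on a log axis, with the knockout-labelled units (KO) at the left of the vertical line and the control units at the right. Scd1 and the B cell and dendritic cell sums are highest in knockout-labelled unit 1, and control unit 1 has the highest Scd1 value and marker sums of the controls.

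Fasn, the fatty acid synthase, read 164, 193 and 246 CPM in knockout-labelled units against 132, 113, 197 and 132 CPM in control units. Control unit 3 lay inside the knockout-labelled range. The log2 fold change was 0.49 ± 0.21 (edgeR adjusted p = 0.132), and it passed the threshold only without control unit 3 (log2 fold change 0.68, adjusted p = 0.0371). Acaca, the acetyl-CoA carboxylase that supplies Fasn, had a log2 fold change of 0.09. Scd2, another stearoyl-CoA desaturase, had 134, 92.7 and 144 CPM in knockout-labelled units against 148, 152, 188 and 132 CPM in control units, a log2 fold change of -0.33 ± 0.18 (adjusted p = 0.228 by edgeR). Scd1 and Scd2 therefore had fold changes of opposite sign; only that of Scd1 passed the test.

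Among the 5 regulators, every fold change was above 0 and 1 passed the test. Of all genes tested, 8526 of 15744 had a fold change above 0, and 7.08% were called higher. The regulators had a median GC content of 59.1%, and all genes above 55% GC had a median log2 fold change of 0.38. The median of the regulators was 0.49, and 0.22 with the offset for GC content and length described below, where 0 were called. Nr1h2, which encodes LXR beta, read 99.1, 168 and 134 CPM in knockout-labelled units against 74.2, 79.0, 80.9 and 85.3 CPM in control units. The knockout-labelled units were all higher and spread more widely. The log2 fold change was 0.74 ± 0.17 (edgeR adjusted p = 0.0207), and the call was lost without control unit 2 or 4 or knockout-labelled unit 2, where the adjusted p was between 0.0515 and 0.0638. Srebf1, the gene of SREBP-1, read 97.5, 129 and 142 CPM in knockout-labelled units against 65.7, 85.0, 124 and 69.0 CPM in control units, a log2 fold change of 0.51 ± 0.23 (adjusted p = 0.155 by edgeR, and 0.0313 without control unit 3). Scap, the SREBP escort, read 82.9, 105 and 121 CPM against 68.0, 72.0, 86.8 and 65.6 CPM, with control unit 3 inside the knockout-labelled range and a log2 fold change of 0.49 ± 0.16 (adjusted p = 0.0617 by edgeR). For Scap the adjusted p was 0.0449 without control unit 3, 0.0412 without knockout-labelled unit 1 and 0.0347 by DESeq2. Srebf2, the gene of SREBP-2, had a log2 fold change of 0.26, and Insig1, which retains Scap and is itself raised by SREBP, of 0.12.

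Of the 6 genes of sterol transport, storage and turnover, Stard4 alone passed the test. Stard4 moves cholesterol between membranes and is a known SREBP-2 target. It read 44.4, 36.1 and 40.4 CPM in knockout-labelled units against 54.9, 66.3, 61.5 and 61.7 CPM in control units. The groups did not overlap and both were narrow. The log2 fold change was -0.60 ± 0.13 (edgeR adjusted p = 0.0175), and the call was lost only without control unit 4 or knockout-labelled unit 2, where the adjusted p was between 0.0530 and 0.0592. Soat1, which esterifies cholesterol for storage, read 73.7, 80.9 and 52.1 CPM in knockout-labelled units against 108, 83.2, 79.8 and 94.4 CPM in control units, a log2 fold change of -0.41 ± 0.17 (adjusted p = 0.136 by edgeR). The exporters Abca1 and Abcg1 and the ubiquitin ligase gene Mylip, all LXR targets, had log2 fold changes of 0.14, 0.10 and 0.09 and did not pass the test. The other LXR targets named in this report differed. Scd1 was called higher, Srebf1 did not pass the test, and Smpdl3a, a target known in human cells, was called lower. Whether LXR activity differed between the groups was not tested. Abca1 lies on chromosome 4, as does Tln1. Npc1, which exports cholesterol from lysosomes, had 0.04.

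**Figure D4:**
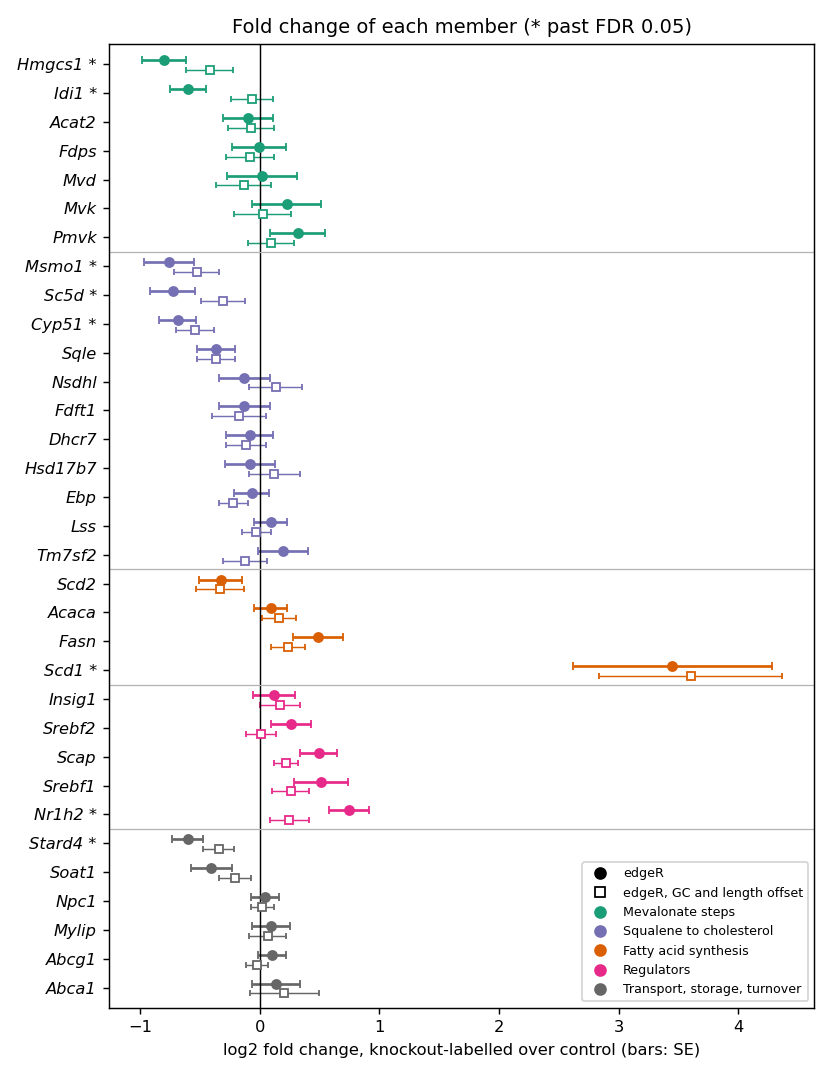
Log2 fold change of each member, knockout-labelled over control, with its SE (n = 3 and 4 units); filled circles are the edgeR fit and open squares the fit with an offset for GC content and length, coloured by role, with an asterisk at members past FDR 0.05 in the first. The squares of Hmgcs1, Idi1, Sc5d, Stard4 and Nr1h2 lie nearer to 0 than the circles, and that of Scd1 does not.

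The fold changes of the members followed the GC content of their transcripts. The 6 that fell had between 41.5% and 46.5% GC, in a set that ran from 41.5% to 59.4%. Over the 32 members other than Scd1, Pearson's r between GC content and log2 fold change was 0.83, and over all 33 members Spearman's rho was 0.73. All genes tested showed a slope of the same sign: rho was 0.43 over 15728 genes and 0.61 over the 9212 genes with a mean of at least 10 CPM. These are correlations across genes that share the same 7 libraries, given as a description. The median log2 fold change of all genes was -0.58 under 40% GC, -0.31 from 40% to 45%, -0.06 from 45% to 50%, 0.18 from 50% to 55% and 0.38 above. Hmgcs1, Sc5d and Idi1, the only members at 40% to 45% GC, had a median of -0.73. The median of their class was -0.31, and 16.3% of its genes were called lower. That class median is over tested genes of every level, and none was taken for genes at the level of these members. The 7 mevalonate and sterol genes at 45% to 50% had a median of -0.13, and the 4 above 55% one of 0.21.

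With an offset for GC content and length in each unit, the fit called 9% of all genes and 1 of 33 members. That member was Scd1, with a log2 fold change of 3.60 (adjusted p = 0.0388 by edgeR). The 6 members that fell all had a fold change below 0, between -0.54 and -0.07, with adjusted p between 0.0625 and 0.842. Cyp51 came to -0.54 (adjusted p = 0.0625), Msmo1 to -0.53 (0.104) and Idi1 to -0.07 (0.842). Nr1h2, at 59.4% GC, came to 0.25 (0.359). An offset of this kind takes out any change that runs along GC content, whatever its source, so the library and the cells cannot be told apart by it.

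**Figure D5:**
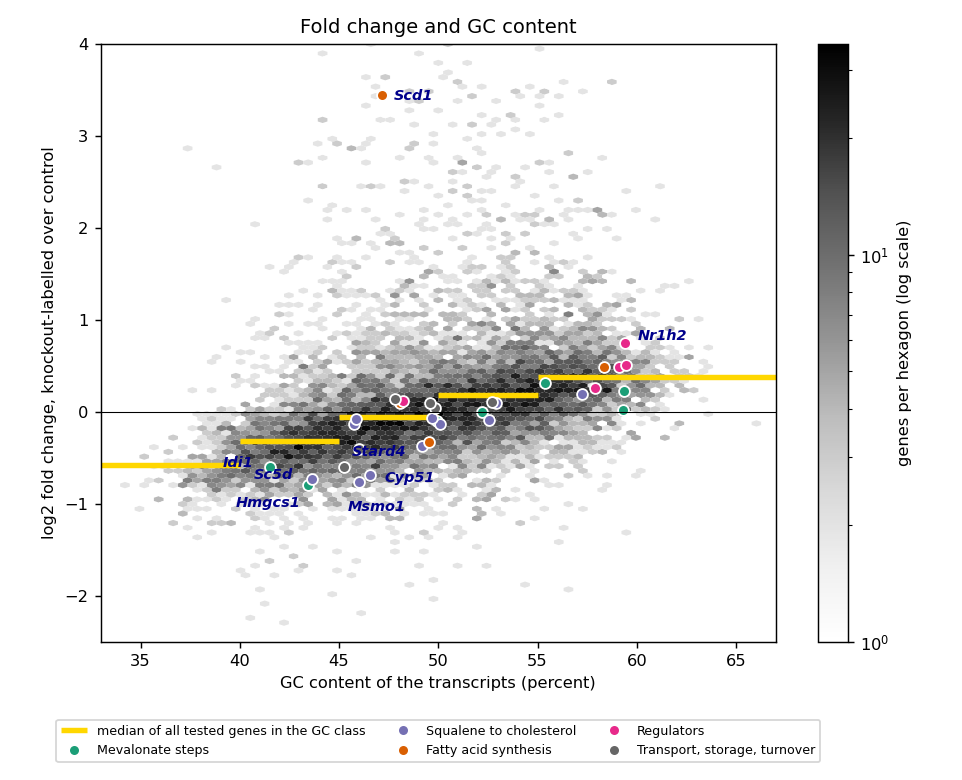
Log2 fold change (knockout-labelled over control) against the GC content of a gene's transcripts; grey hexagons count the tested genes, gold bars are medians of all tested genes in 5 GC classes, and coloured points are the members by role. The gold bars climb from -0.58 to 0.38, the 6 members that fell lie at 41.5% to 46.5% GC below the bars of their classes, and Scd1 lies far above. These 7 are members picked by their calls, so their distance from the bars follows in part from that choice.

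Per unit of length, the regulators Nr1h2 and Srebf1 had the highest control means among the members, followed by the sterol enzyme Ebp and the regulator Srebf2; the regulators Insig1 and Scap ranked 11 and 17 of the 33. Nr1h2 averaged 254 ± 128 TPM in knockout-labelled units and 172 ± 28.5 TPM in control units (SD), but 45.5% and 44.4% of that lay in a retained-intron transcript of 237 bases. Srebf1 averaged 114 ± 18.2 and 73.3 ± 35.1 TPM in the same order, Srebf2 49.6 ± 6.77 and 43.1 ± 10.6 TPM, and the isomerase Ebp 44.5 ± 0.768 and 45.8 ± 9.45 TPM, so Ebp and Srebf2 did not differ beyond their spread. Of the control TPM of Ebp, 52.0% lay in Ebp-203, of 526 bases, and 36.7% in the retained-intron Ebp-202. Among the genes that fell, Msmo1 had the highest TPM in control units when summed over transcripts. It averaged 19.0 ± 2.59 TPM in knockout-labelled units and 33.4 ± 11.1 TPM in control units. In control units 31.7% of that lay in Msmo1-205, of 342 bases, and 28.7% in the non-coding Msmo1-206. Msmo1-201, of 2044 bases, averaged 9.16 TPM there, against 25.9 TPM for Hmgcs1-201. The summed TPM of Msmo1 stood beside that of Fdps, Fasn, Hmgcs1, Scd2 and Sc5d, whose control means ran from 25.3 to 27.6 TPM, within each other's spread. Of the control TPM of Fasn, 46.6% lay in the protein-coding Fasn-201, which averaged 12.3 TPM, and 38.2% in the retained-intron Fasn-202, of 762 bases. Scd1 was the least abundant member in control units, with 5.33 ± 2.18 TPM in knockout-labelled units and 0.524 ± 0.562 TPM in control units, and Abca1 the next, at 4.12 ± 0.591 and 3.89 ± 0.770 TPM.

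At the level of single transcripts, limma on log2(TPM + 1) called 2.21% of 34064 transcripts. Of transcripts that hold at least 20% of a member's TPM in a group, the only 1 called was Scd1-201, with a difference of 2.06 ± 0.38 on that log2 scale (adjusted p = 0.0397), a scale that understates changes of low transcripts. For Sc5d the difference lay in Sc5d-201, which averaged 8.57 ± 3.54 TPM in knockout-labelled units and 19.4 ± 2.97 TPM in control units (limma adjusted p = 0.0816). Sc5d-202 averaged 7.28 ± 1.19 TPM and 5.93 ± 4.31 TPM in the same order. The full-length Cyp51-201 averaged 7.51 ± 1.01 TPM in knockout-labelled units and 13.2 ± 2.56 TPM in control units (limma adjusted p = 0.117), and the short non-coding Cyp51-202 3.17 ± 1.38 and 0.986 ± 1.33 TPM. In Soat1 a retained-intron transcript, Soat1-205, held 46.2% of the gene's TPM in knockout-labelled units and 17.4% in control units (limma adjusted p = 0.0843), so the gene's TPM was higher there while its CPM was lower.

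A list of 43 further genes of sterol and fatty acid metabolism gave the surroundings of the members. Of the 42 with enough reads, 7 rose and 6 fell, where 7.08% of all genes tested were called higher and 6.53% lower. The median log2 fold change of the list was 0.22, against 0.06 over all genes. The gene that fell with the smallest adjusted p was Hacd3, a dehydratase of very long chain fatty acid elongation, at 61.7, 59.2 and 53.8 CPM in knockout-labelled units against 113, 123, 95.4 and 102 CPM in control units. The groups were well apart, with a log2 fold change of -0.90 ± 0.13 (adjusted p = 0.00400 by edgeR), and the call held in 7 of 7 fits that left out 1 unit. Fads1, the delta-5 desaturase of polyunsaturated fatty acids, read 35.1, 29.2 and 48.8 CPM in knockout-labelled units against 18.9, 19.1, 15.3 and 16.6 CPM in control units. All knockout-labelled units were higher, with a log2 fold change of 1.11 ± 0.19 (adjusted p = 0.00799 by edgeR), in 7 of 7 such fits. Smpdl3a, a phosphodiesterase known in human cells as an LXR target, had a log2 fold change of -0.80 and Acsl4, which activates arachidonate, of -0.65, both also in 7 of 7 fits. Elovl5, an elongase, had -0.51, and Ggps1, which draws farnesyl diphosphate into protein prenylation, -0.54. Acsl1, a long-chain acyl-CoA synthetase, had 0.93, and Stard3, a sterol carrier of late endosomes, 0.58.

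With the GC and length offset, 4 of these 42 genes were called. Hacd3 had a log2 fold change of -0.68 (adjusted p = 0.00710 by edgeR), Smpdl3a -0.54 and Fads1 1.00. The fourth was Insig2, the second Insig gene, at 18.8, 15.3 and 14.2 CPM in knockout-labelled units against 21.4, 30.4, 28.1 and 22.3 CPM in control units. Insig2, which is named here after its values were seen, had a log2 fold change of -0.67 ± 0.19 without the offset (adjusted p = 0.0463 by edgeR) and -0.81 with it (0.0244).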

How the data were processed

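Expected counts (estimated reads per transcript) and TPM were deposited by the authors in 1 kallisto table per sample, on a GRCm38 transcriptome per the submitters' processing notes, which give no kallisto version. Lengths and effective lengths, the other columns deposited by the authors, were the same in all tables. Counts were summed per gene through GENCODE vM21 (2079 of 88198 transcripts, with 1.17% to 1.28% of reads, matched no gene), the 2 samples sharing a first number in their titles were added, and sums were rounded. No label ties animals to numbers, so the p-values rest on the spread among these 7 units, which may be partly technical. Genes were tested with edgeR 4.0.16 in R 4.3.3 (TMM, filterByExpr, robust quasi-likelihood fit, group as the only term, Benjamini-Hochberg adjustment), and transcripts averaging 1 TPM or more with limma 3.58.1. CPM are counts scaled by TMM library sizes. The step was tested on simulated counts in which the changed genes were drawn at random. Those counts held no GC trend between groups and no added reads of other cells, so that test does not bear on either. Shared sequence counts the words of 31 bases that a gene has in common with any other gene of the tables. The gene named beside a share is the one with the most words in common. Alternatives were other scalings, filters and tests (DESeq2 1.42.0, limma-voom, glmTreat at 1.5-fold), GC and length or effective-length offsets, a replicate block, single samples of a unit and leaving out each unit.

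The members and lists were chosen with earlier results of these data known. Named were all 33 members, up to 8 further pathway genes with the smallest adjusted p, Tln1, T cell checks and transcripts with at least 20% of a member's TPM, of which the ones that bear on a result are described. Leaving out 2 units together was chosen after seeing the data.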

Additional observations from a re-analysis of the deposited data

Results flagged for a closer look

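Of 42 groups of 4 control units examined, 1 held a unit far from the others, where chance marks about 1 in 20. Stard3, which encodes a sterol carrier of late endosomes, read 41.4 CPM in control unit 3, against 31.5, 31.6 and 31.9 CPM in control units 1, 2 and 4; it was still below the 45.2 CPM of the lowest knockout-labelled unit.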

How the results depend on the processing

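The 8 called members were the same genes under RLE and library-size scaling, the stricter filter and limma-voom. Upper-quartile scaling and no filter each gave 7 (6 lower, 1 higher), and the call lost in both was that of Scd1. DESeq2 gave 9. Either sample of a unit alone also gave the same 8, but the 2 samples of a unit differed little. The chi-square per degree of freedom between their counts was 1.44 to 1.91, against 7.37 to 108 between units of a group. Agreement between the 2 samples is therefore not separate evidence for the calls. Tested against a fold of 1.5, glmTreat called 0 members, while edgeR without that floor had 12 at an unadjusted p under 0.05. The GC and length offset called 1 (0 lower, 1 higher) and the effective-length offset 2 (1 lower, 1 higher). With both control unit 1 and the knockout-labelled unit 3 left out, 7 members were called, 1 of them higher. Leaving out 1 unit gave 0 to 8 called members, 0 to 6 lower and 0 to 4 higher. The further pathway genes, 13 in the main result, numbered 0 under glmTreat, 4 with the GC and length offset, 6 with the effective-length offset, 7 without both units, and 4 to 11 with 1 unit left out. All genes called were 2142 in the main result, 3555 by DESeq2, 450 by glmTreat (79.3% of them higher, against 52.0%), 1417 with the GC and length offset (65.9% higher), 1327 without both units (66.7% higher) and 758 to 1905 with 1 unit left out; 39.8% of the calls were higher under the stricter filter. No transcript of a member was called on log2(TPM + 0.1) or without the TPM filter (0 under each). The cause of these changes was not tested.

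Replicate numbers 1 to 3 did not pair the units: deviations from the group means correlated at 0.029, -0.122 and -0.055. With a replicate block on them, 1 member was called (0 lower, 1 higher), 1 further pathway gene and 553 genes in all; with the block and the GC and length offset 1 member (0 lower, 1 higher), 0 further genes and 279 genes.

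Of 726 refits of single members, 610 gave the same call, 73 lost a call, 5 gained one and 38 changed sign, all 38 among members not called. Mvd came to -0.045 by limma-voom, -0.14 with the GC and length offset, -0.015 with the effective-length offset, -0.17 with block and offset, -0.043 on the second samples and -0.27 without both units. Fdps came to 0.013 by upper-quartile scaling, 0.019 by library size, 0.0065 without a filter and 0.0014 on the second samples. With the GC and length offset, and then with the block added, Lss came to -0.030 and -0.056, Tm7sf2 to -0.12 and -0.19, Nsdhl to 0.13 and 0.13, Hsd17b7 to 0.12 and 0.14, and Abcg1 to -0.021 and -0.0015. With the effective-length offset Hsd17b7 came to 0.14, Dhcr7 to 0.056 and Soat1 to 0.38. With 1 unit left out, the log2 fold change ran from -0.21 to 0.044 for Acat2, -0.17 to 0.26 for Mvd, -0.16 to 0.18 for Fdps, -0.29 to 0.042 for Fdft1, -0.022 to 0.16 for Lss, -0.20 to 0.056 for Hsd17b7, -0.20 to 0.072 for Dhcr7, -0.090 to 0.27 for Insig1, -0.046 to 0.32 for Abca1, -0.019 to 0.23 for Mylip and -0.013 to 0.097 for Npc1.

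Depth limits Scd1 most, with 18 reads in its lowest unit.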
